A study of Mus musculus with 12 samples.

Results

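The 44 genes of the mouse collagen chains were followed through early adipogenic differentiation of 3T3-L1 cells, with and without knockdown of the arginine methyltransferase PRMT1. The members are all genes whose symbol has the form of a collagen chain (Col, the type number, a, the chain number), which gave 44 of the 39423 genes in the table. Of these, 19 reached a mean of at least 1 FPKM (fragment counts scaled by transcript length and library size) over all libraries and are described by name, as against 11239 genes in all at that level. 3T3-L1 is an established mouse preadipocyte line, and all 12 libraries came from it. Cells were transfected with a control siRNA (siCtrl, NC in the labels) or with siRNA against PRMT1 (siPRMT1), and all of them were then induced with dexamethasone, 3-isobutyl-1-methylxanthine and insulin (DMI, written MDI in the labels). RNA was taken after 24 hours (day 1) or 72 hours (day 3) of induction. Where values are joined by "against", siCtrl comes first. Each of the 4 conditions had 3 libraries, which is the n behind each group mean and SD given here, while interactions were fitted over all 12 libraries. No uninduced cells were analysed here, so each time comparison is between day 1 and day 3 of induction.

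Collagens are extracellular proteins built of 3 chains wound into a triple helix, in which a glycine recurs after each pair of other residues. Fibrillar collagens such as types I, III and V form the banded fibrils of connective tissue, FACIT collagens (fibril-associated collagens with interrupted triple helices) sit on the surface of those fibrils, type IV forms the network of basement membranes, type VI forms beaded filaments around cells, and multiplexins carry endostatin-like domains near basement membranes. Preadipocytes are fibroblast-like cells surrounded by fibrillar matrix, and mature adipocytes are wrapped in a basement membrane with type VI collagen around it. The comparisons asked how the collagen chains changed between day 1 and day 3 of induction, whether PRMT1 knockdown altered their level at either day, and whether its effect differed between the days.

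Library totals ran from 15116462 to 42357137 counts, so that 3 counts corresponded to 0.0708 to 0.198 CPM (counts scaled to library size alone). Prmt1 was measured at 82.9, 83.4 and 91.3 FPKM in the day 1 siCtrl libraries and 43.8, 38.6 and 41.4 in the siPRMT1 libraries (log2 fold change -1.11, SE 0.076, edgeR adjusted p = 9.8e-04), and at 111, 120.4 and 140.2 against 62, 71.7 and 68.5 FPKM on day 3 (log2 fold change -0.88, SE 0.088, edgeR adjusted p = 1.2e-05). The summed level of 8 adipocyte markers was 148 to 154 FPKM on day 1 and 2802 to 3019 FPKM on day 3 in siCtrl, and 112 to 126 and 2175 to 2384 FPKM in siPRMT1. That of 6 preadipocyte markers was 606 to 631 FPKM in siCtrl and 556 to 589 in siPRMT1 on day 1, and 109 to 116 against 143 to 165 FPKM on day 3. Markers of other cell types were low, and some were higher on day 3. The summed level of 4 epithelial markers was 0 to 0.12 FPKM on day 1, and 11 to 11.4 FPKM in siCtrl and 6.36 to 6.64 in siPRMT1 on day 3. That of 4 muscle markers was 0.68 to 1.14 FPKM on day 1, and 6.35 to 6.54 against 3.54 to 4 FPKM on day 3, and that of 4 endothelial markers 0.12 to 0.25 and then 0.79 to 0.88 against 0.58 to 0.68 FPKM. The sums of 5 macrophage markers lay between 1.76 and 2.86 FPKM, and those of 5 chondrocyte and osteoblast markers between 13.3 and 31.5 FPKM, where 1 gene of the 5 was above 1 FPKM. Among the 19 named chains, library 1 of siCtrl day 1 was the lowest of its group for 17 chains and library 3 the highest for 15. In siPRMT1 day 3, library 1 was the lowest for 18 chains and library 3 the highest for 16.

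The triple helix is written in the coding sequence as a glycine codon (GGN) that opens each triplet of codons. In the coding sequences of GENCODE M21 on GRCm38, the longest unbroken run of such triplets spanned 216 to 344 triplets in the 11 fibrillar chains and 23 to 113 in the other 33 chains. The longest run was 338 triplets in Col1a1, 339 in Col1a2 and 344 in Col3a1, but 40 in Col4a1, 45 in Col6a3 and 32 in Col12a1, whose helices are interrupted. Exons of exactly 54 bases, that is 6 triplets, made up 21 of the 51 coding exons of Col1a1, 24 of 52 of Col1a2 and 24 of 51 of Col3a1. One such exon of each of these chains is printed to show the repeat that defines the family, from the plus strand of GRCm38, with the glycine codon that opens each triplet in capitals. They are exon 8 of Col1a1 at chr11:94939904-94939957, exon 8 of Col1a2 at chr6:4515481-4515534 and exon 6 of Col3a1 at chr1:45325360-45325413, counted among the coding exons:
Col1a1: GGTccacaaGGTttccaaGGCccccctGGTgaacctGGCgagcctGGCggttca
Col1a2: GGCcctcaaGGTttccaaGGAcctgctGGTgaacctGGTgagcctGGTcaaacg
Col3a1: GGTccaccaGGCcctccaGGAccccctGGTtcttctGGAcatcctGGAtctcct
Each exon opened on a glycine codon and held 6 whole triplets.

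The promoters of 4 chains are printed because their transcripts took different courses over induction, described further on: Col1a2 and Col3a1 fell between day 1 and day 3, Col6a3 rose, and Col6a1 stayed within the threshold. Each is the 250 bases before the annotated start in RefSeq (GRCm38.p6), with matches on either strand in capitals to the CCAAT box (letters CCAAT), the GC box (letters GGGCGG) and the TATA box (letters TATAAA). The window of Col1a2 lies at chr6:4505368-4505617 on the plus strand, that of Col3a1 at chr1:45311288-45311537 on the plus strand, that of Col6a1 at chr10:76726045-76726294 on the minus strand and that of Col6a3 at chr1:90843972-90844221 on the minus strand:
Col1a2: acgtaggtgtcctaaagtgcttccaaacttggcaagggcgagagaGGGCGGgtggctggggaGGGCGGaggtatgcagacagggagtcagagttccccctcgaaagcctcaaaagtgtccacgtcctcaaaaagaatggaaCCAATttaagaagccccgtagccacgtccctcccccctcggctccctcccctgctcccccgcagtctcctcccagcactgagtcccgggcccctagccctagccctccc
Col3a1: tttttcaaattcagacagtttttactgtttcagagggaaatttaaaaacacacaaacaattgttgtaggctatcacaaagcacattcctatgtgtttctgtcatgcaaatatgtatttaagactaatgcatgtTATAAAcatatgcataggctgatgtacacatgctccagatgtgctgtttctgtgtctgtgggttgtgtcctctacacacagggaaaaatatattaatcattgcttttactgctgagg
Col6a1: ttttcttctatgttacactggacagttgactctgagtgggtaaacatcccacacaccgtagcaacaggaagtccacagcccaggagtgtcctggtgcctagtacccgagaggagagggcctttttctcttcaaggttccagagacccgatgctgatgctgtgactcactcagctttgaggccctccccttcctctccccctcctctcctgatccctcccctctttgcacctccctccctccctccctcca
Col6a3: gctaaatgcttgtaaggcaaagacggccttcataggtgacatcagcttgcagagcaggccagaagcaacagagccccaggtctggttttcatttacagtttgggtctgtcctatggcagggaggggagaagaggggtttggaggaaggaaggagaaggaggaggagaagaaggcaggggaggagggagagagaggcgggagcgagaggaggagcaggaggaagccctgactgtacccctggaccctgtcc
Col1a2 had 1 CCAAT match and 2 GC boxes in a window of 62.0% G and C, and Col3a1 had a single TATAAA match in a window of 35.2% G and C. The windows of Col6a1 and Col6a3, of 56.0% and 57.2% G and C, held none of the 3 motifs. Over the 18 windows found for 16 named chains, 8 held CCAAT, 11 held GGGCGG and 1, that of Col3a1, held TATAAA. Over all 32817 promoters, the shares were 33.8%, 32.7% and 12.4%. These are matches of letters and were not tested against expression.

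Several collagen chains were among the most abundant transcripts of these cells: by mean FPKM in siCtrl on day 1, Col6a1 held rank 23 of the 39423 genes, Col1a2 rank 45 and Col3a1 rank 78, and on day 3 Col6a1 held rank 30, Col4a1 rank 74, Col6a2 rank 85 and Col6a3 rank 89. Over the 12 libraries Col6a1 had the highest mean, at 763 FPKM, followed by Col6a2 at 454, Col1a2 at 449.9, Col4a1 at 445, Col3a1 at 387, Col4a2 at 313, Col6a3 at 282 and Col1a1 at 204 FPKM. A middle group held Col5a2, Col5a1, Col18a1 and Col5a3, at 89.3, 88.8, 59.7 and 37.1 FPKM. Col12a1 and Col4a5 followed at 19.2 and 12.4 FPKM, then Col15a1, which ran from 2.46 to 22.2 FPKM, and Col27a1, Col20a1, Col16a1 and Col11a1 had means between 2 and 2.63 FPKM. The place of Col16a1 is that of its smaller row. A second row of this chain on another scaffold, described with that gene, measured 5.43 to 24.4 FPKM. The ranges of Col4a1, Col6a2, Col1a2 and Col3a1 over the libraries overlapped, with Col1a2 from 244 to 652 FPKM, so that their order differed between conditions. The limit of 1 FPKM fell between Col11a1, at 2 FPKM, and Col28a1, at 0.863 FPKM.

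**Figure D1:**
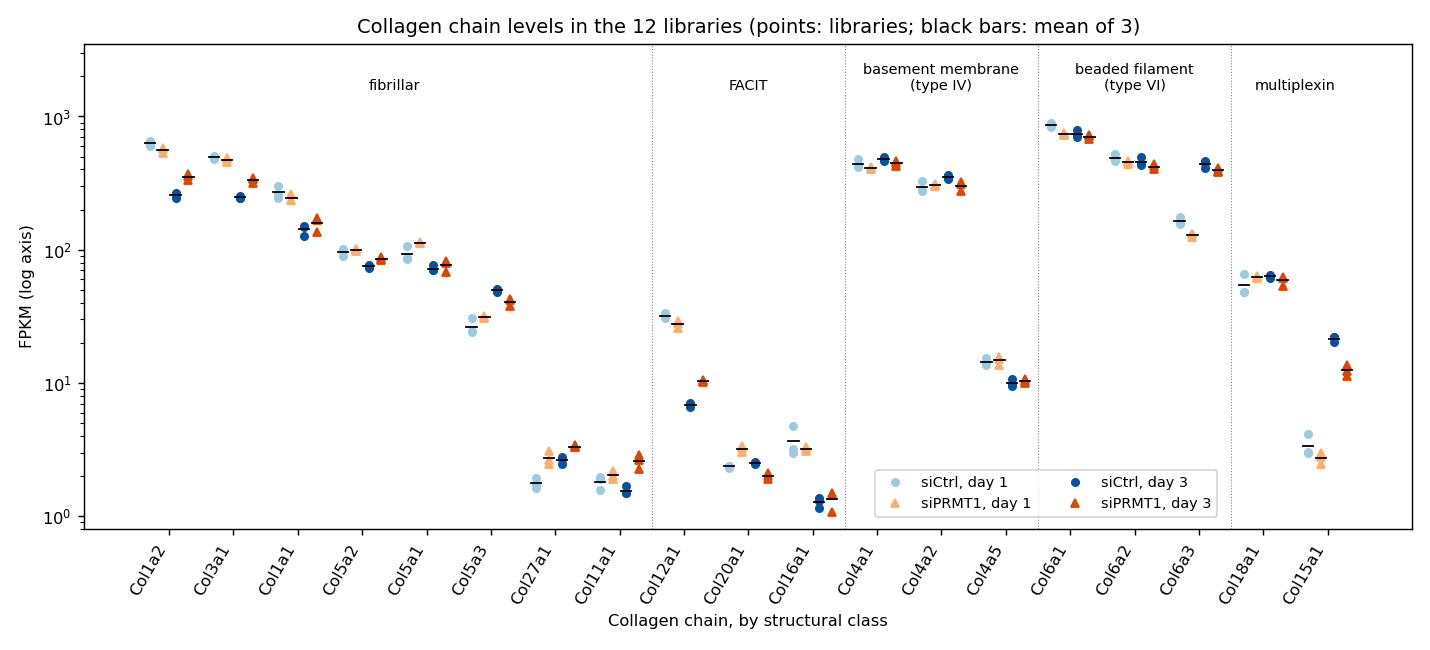
FPKM of the 19 named collagen chains in each of the 12 libraries, on a log axis, ordered by structural class. Points are libraries, coloured by condition, and short black bars are means of 3. Col16a1 is shown by the smaller of its rows. Col12a1 and Col16a1 were lower on day 3 than on day 1 with no overlap for either siRNA, Col15a1 and Col6a3 were higher, and the 2 large type IV chains stayed within 274 to 498 FPKM.

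A gene was called higher or lower where the edgeR quasi-likelihood test over all genes gave an adjusted p under 0.05 and a log2 fold change beyond 0.5 in either direction. Of the 44 chains, 27 had enough counts to be tested in at least 1 comparison, 19 named and 8 below 1 FPKM. The other 17 were tested in none, and had at most 14 counts and 0.16 FPKM in any library. The knockdown and time comparisons use the same libraries in pairs, so their values are given side by side and are not independent of each other.

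From day 1 to day 3 in siCtrl, 4 of 26 chains tested rose and 8 fell, where 22.7% of all 13829 genes tested were called higher and 20.4% lower. The chains that rose were Col15a1, Col6a3, Col5a3 and Col27a1, and those that fell were Col12a1, Col16a1, Col1a2, Col3a1, Col1a1 and Col4a5 with the low Col23a1 and Col28a1. The median log2 fold change was -0.30 over the chains and -0.0042 over all genes. In siPRMT1, 3 of 26 rose and 10 fell, where 19.0% of 14224 genes were called higher and 17.4% lower. Here Col15a1, Col6a3 and the low Col8a1 rose, and Col12a1, Col16a1, Col20a1, Col1a2, Col1a1, Col5a1, Col4a5, Col3a1, Col9a3 and Col7a1 fell. The median was -0.26 over the chains and 0.0022 over all genes.

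**Figure D2:**
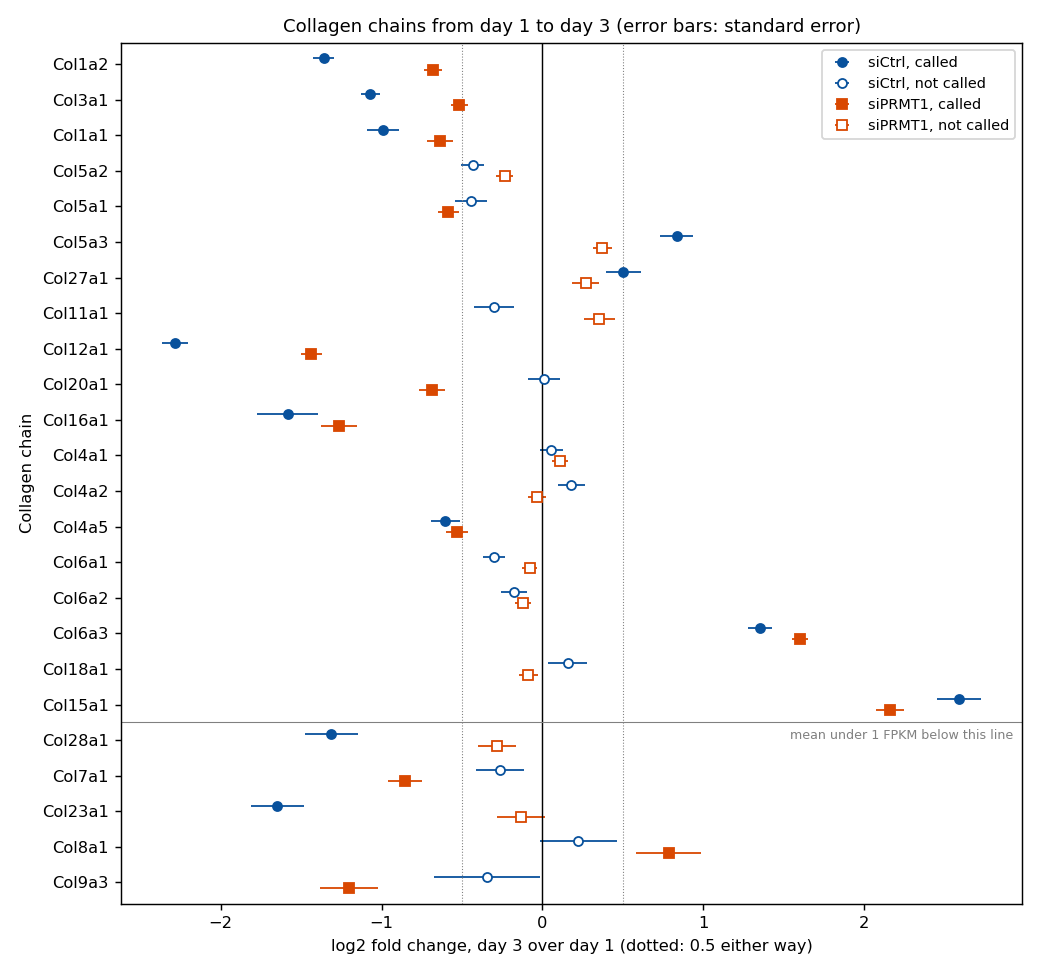
Log2 fold change from day 1 to day 3 of induction, in siCtrl and in siPRMT1, from the edgeR fit. Shown are the chains of at least 1 FPKM and, below a line, those under 1 FPKM that were called in a comparison. Points are estimates, bars are SE and filled points were called. Col15a1 and Col6a3 lie to the right in both, Col12a1 and Col16a1 to the left, and Col1a2, Col3a1 and Col12a1 lie further left in siCtrl than in siPRMT1.

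The effect of PRMT1 knockdown was compared on each day. On day 1, 3 of 27 chains tested were called higher, Col27a1 and the low Col7a1 and Col9a3, and 0 were called lower, where 1.95% of all 13689 genes tested were called higher and 1.61% lower. DESeq2 also called 0 chains lower on day 1, where 8 chains were lower at an unadjusted p under 0.05 by edgeR and 3 of them (Col6a3, Col6a1 and Col1a2) at an adjusted p under 0.05 with a size below the threshold. These 3 did not stay under 0.05 in every other fit by edgeR, DESeq2 or limma. Their highest adjusted p there was 0.0567, 0.144 and 0.299. At any size and in either direction, 7 of 27 chains and 1040 of all 13689 genes had an edgeR adjusted p under 0.05 on day 1. Without library 3 of siPRMT1 day 1 the count of higher chains was 1. On day 3, 5 of 26 were called higher, Col12a1, Col11a1 and the low Col28a1, Col23a1 and Col9a3, and 1 lower, Col15a1, where 2.84% of 14039 genes were called higher and 3.80% lower. The median log2 fold change of the chains was 0.00024 on day 1 and 0.11 on day 3, against 0.0096 and 0.0073 over all genes. The effect of siPRMT1 differed between the days, by the interaction of siRNA and time, for 8 of 27 chains: it was more positive on day 3 for Col3a1, Col1a2, Col11a1, Col12a1, Col28a1 and Col23a1, and more negative for Col20a1 and Col7a1. Over all 14612 genes tested, 4.77% were called more positive and 3.47% more negative. The count of 2 more negative chains became 4 without library 3 of siCtrl day 1, where Col15a1 and Col5a3 joined, and 1 in the 8 fits without 1 library that lost Col7a1, which are named with that gene.

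**Figure D3:**
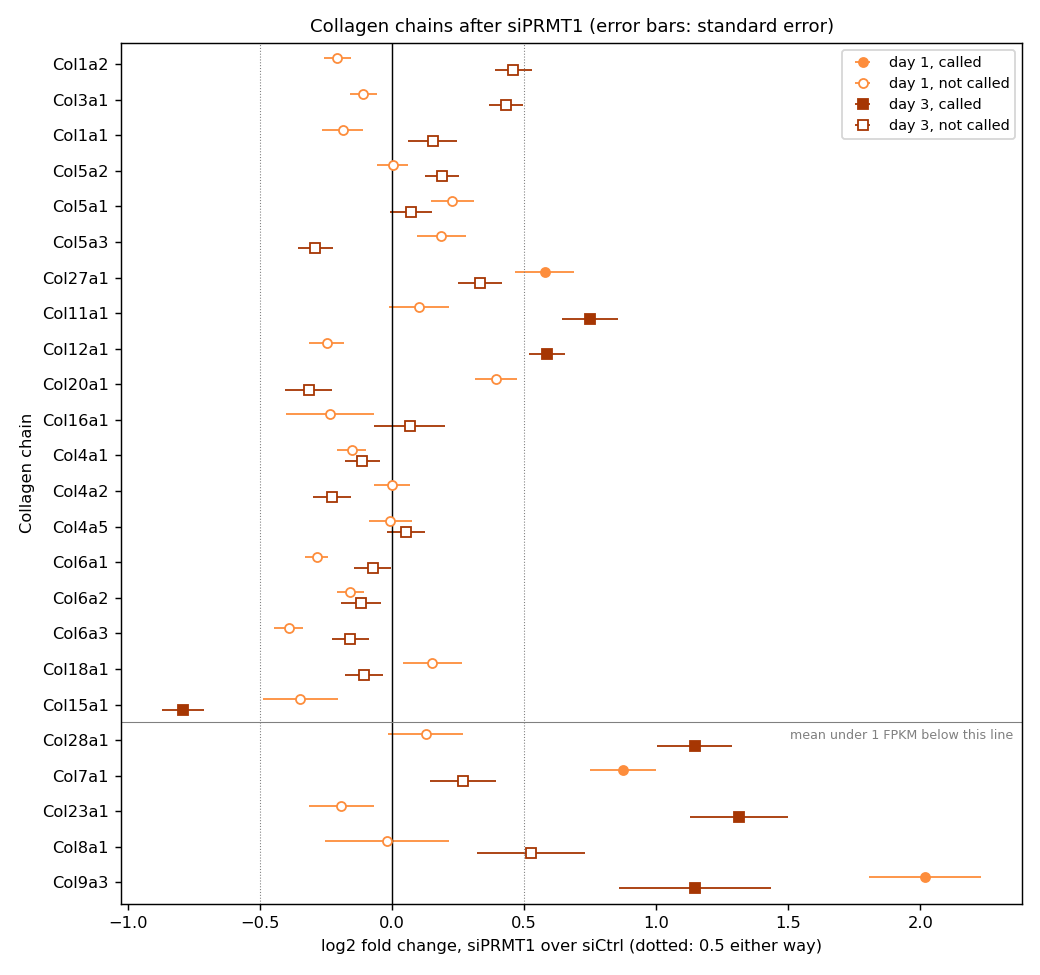
Log2 fold change of siPRMT1 against siCtrl on day 1 and on day 3, from the edgeR fit. Shown are the chains of at least 1 FPKM and, below a line, those under 1 FPKM that were called in a comparison. Points are estimates, bars are SE and filled points were called. Above the line, Col27a1 was called higher on day 1, and Col12a1 and Col11a1 higher and Col15a1 lower on day 3. Below it, Col7a1 and Col9a3 were called higher on day 1, and Col28a1, Col23a1 and Col9a3 on day 3. Col1a2 moved from -0.21 on day 1 to 0.46 on day 3.

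Marker levels also differed in these comparisons, though not all in the same way. From day 1 to day 3, 8 of 8 adipocyte markers were called higher and 5 of 6 preadipocyte markers lower, in siCtrl and in siPRMT1. Over all genes tested, 22.7% were called higher and 20.4% lower over time in siCtrl, and 19.0% and 17.4% in siPRMT1. With siPRMT1, 4 of 7 adipocyte markers tested were called lower on day 1 and 0 of 6 preadipocyte markers in either direction. On day 3, 3 of 8 were called lower and 2 of 6 preadipocyte markers higher, with no overlap of the summed levels. Over all genes, 1.95% were called higher and 1.61% lower on day 1, and 2.84% and 3.80% on day 3. The preadipocyte sum was lower with siPRMT1 on day 1, and Ly6a alone measured 378 to 438 FPKM in siCtrl. Fabp4, Cd36, Dlk1, Thy1 and Cd34 overlapped between the siRNAs on day 3. Few markers of other cell types could be tested. Over time in siCtrl 2 of 2 epithelial, 2 of 2 endothelial, 1 of 1 muscle and 2 of 3 macrophage markers were called higher, and 1 of 3 macrophage and 1 of 1 chondrocyte and osteoblast markers lower. In siPRMT1 these were 2 of 2, 1 of 1, 1 of 1 and 1 of 3 higher, and 1 of 3 and 1 of 1 lower. With siPRMT1 on day 3, 2 of 2 epithelial, 1 of 2 endothelial and 1 of 1 muscle markers were called lower. The part of all these markers in the collagen differences was not tested. In bulk RNA, a change in the number of cells of one state and a change in the RNA of each cell cannot be told apart.

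Type I collagen, the main protein of bone, tendon and dermis, joins 2 chains from Col1a1 (chr11:94936224-94953042) and 1 from Col1a2 (chr6:4505618-4541543). Col1a2 measured 603, 626 and 652 FPKM in siCtrl and 581, 569 and 536 in siPRMT1 on day 1, and 244, 260.0 and 265 against 333, 359.8 and 369.6 FPKM on day 3. All siPRMT1 libraries were below siCtrl on day 1 and above it on day 3, and both day 3 groups lay below both day 1 groups. It fell over time in siCtrl (log2 fold change -1.36, SE 0.067, edgeR adjusted p = 1.4e-07) and in siPRMT1 (log2 fold change -0.68, SE 0.055, edgeR adjusted p = 1.3e-07). The knockdown differences passed the adjusted p but not the size threshold on either day, at -0.21 (edgeR adjusted p = 0.046) and 0.46 (edgeR adjusted p = 3.5e-04). On day 1 this depended on the fit, with an adjusted p of up to 0.299 over the other fits by edgeR, DESeq2 or limma. The difference of the knockdown effect between days was called (interaction 0.69, SE 0.086, edgeR adjusted p = 1.4e-04).

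Col1a1 measured 246, 262 and 300.1 FPKM in siCtrl and 262, 235 and 238 in siPRMT1 on day 1, and 127, 151 and 148 against 136, 168 and 173 on day 3. The siRNA groups overlapped on both days, and every day 3 library was below every day 1 library. It fell in siCtrl (log2 fold change -0.99, SE 0.099, edgeR adjusted p = 1.6e-05) and in siPRMT1 (log2 fold change -0.64, SE 0.08, edgeR adjusted p = 9.5e-06). Neither knockdown value passed, at -0.19 (edgeR adjusted p = 0.182) and 0.15 (edgeR adjusted p = 0.281), and the interaction of 0.36 did not pass either.

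Type III collagen is a homotrimer of Col3a1 (chr1:45311538-45349706) that accompanies type I in soft tissues. Col3a1 measured 479, 503 and 498 FPKM in siCtrl and 490.2, 479.6 and 452 in siPRMT1 on day 1, which overlapped, and 245, 251 and 244 against 317, 344 and 342 on day 3, where every siPRMT1 library was higher. It fell over time in siCtrl (log2 fold change -1.07, SE 0.059, edgeR adjusted p = 3.0e-07) and by less in siPRMT1 (log2 fold change -0.52, SE 0.054, edgeR adjusted p = 1.6e-06). The siPRMT1 call rests on the size threshold, since without library 1 of siPRMT1 day 1 or library 1 of siPRMT1 day 3 the value was -0.49 and -0.49. The interaction was called (0.56, SE 0.076, edgeR adjusted p = 3.0e-04), while the day 3 difference of 0.43 (edgeR adjusted p = 3.5e-04) stayed under the size threshold. With limma on log2(FPKM + 1) and log2(FPKM + 0.1) the interaction was 0.496 and 0.497, just under the threshold of size.

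Type V collagen, a minor component inside type I fibrils, is made from Col5a1 (chr2:27886395-28039510), Col5a2 (chr1:45374331-45503282) and Col5a3 (chr9:20770057-20815117). Col5a3 rose in siCtrl. It measured 24.4, 24.2 and 30.9 FPKM in siCtrl on day 1 and 51.1, 49.5 and 48.4 on day 3 (log2 fold change 0.83, SE 0.10, edgeR adjusted p = 7.7e-05), and 31.2, 30.9 and 31.6 on day 1 and 37.9, 41.8 and 42.7 on day 3 in siPRMT1, where the increase of 0.37 (edgeR adjusted p = 6.2e-05) stayed under the size threshold. Every day 3 library was above every day 1 library of the same siRNA. On day 3 each siPRMT1 library was below each siCtrl library, at a log2 fold change of -0.29 (edgeR adjusted p = 0.00851). The highest adjusted p of this difference was 0.055 over the other fits by edgeR, DESeq2 or limma. The interaction of -0.45 (edgeR adjusted p = 0.0263) was also under the size threshold, and passed it at -0.61 (edgeR adjusted p = 8.0e-05) without library 3 of siCtrl day 1, the highest of its group.

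Col5a1 measured 85.6, 87.2 and 107 FPKM in siCtrl and 112, 112 and 115 in siPRMT1 on day 1, then 70.1, 76.6 and 69.9 against 67.7, 78.9 and 82 on day 3. It fell over time in siPRMT1 (log2 fold change -0.58, SE 0.065, edgeR adjusted p = 2.9e-06). In siCtrl the value was -0.44 (edgeR adjusted p = 0.00342), and passed the threshold of size at -0.52, -0.51 and -0.54 without library 1 or 2 of siCtrl day 1 or library 2 of siCtrl day 3. Col5a2 measured 90.1, 98.7 and 101 FPKM in siCtrl and 101, 101 and 97.7 in siPRMT1 on day 1, and 76.9, 72.4 and 75.5 against 83.4, 88.6 and 85.6 on day 3. Its day 3 libraries were below its day 1 libraries for both siRNAs, at log2 fold changes of -0.43 (edgeR adjusted p = 4.9e-04) and -0.23 (edgeR adjusted p = 0.00141), and neither value reached the size threshold. Every siPRMT1 library was above every siCtrl library for Col5a1 on day 1, at 0.23 (edgeR adjusted p = 0.131). The same held for Col5a2 on day 3, at 0.19 (edgeR adjusted p = 0.0535). Neither Col5a1 nor Col5a2 was called in a knockdown comparison or in the interaction. Col5a2 and Col3a1 lie close together on chromosome 1, on opposite strands.

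The last of the named fibrillar chains had low levels. Col11a1 (chr3:114030479-114220756), a chain of cartilage fibrils, measured 1.97, 1.89 and 1.58 FPKM in siCtrl and 1.9, 2.17 and 2 in siPRMT1 on day 1, which overlapped, and 1.49, 1.68 and 1.5 against 2.28, 2.9 and 2.65 on day 3, which did not. It was higher in siPRMT1 on day 3 (log2 fold change 0.75, SE 0.11, edgeR adjusted p = 2.1e-04), and its interaction was called (0.66, SE 0.16, edgeR adjusted p = 0.0129), but not without library 2 of siCtrl day 1, at 0.60 (edgeR adjusted p = 0.0507). With limma on log2(FPKM + 1), the day 3 difference was 0.49 and the interaction 0.39, both under the size threshold. Col27a1 (chr4:63214009-63334991), also known from cartilage, measured 1.64, 1.95 and 1.75 against 2.66, 2.48 and 3.1 FPKM on day 1 and 2.69, 2.76 and 2.48 against 3.28, 3.3 and 3.42 on day 3, with siPRMT1 above siCtrl in every library on both days. The day 1 difference was called (log2 fold change 0.58, SE 0.11, edgeR adjusted p = 0.0216), and the day 3 difference was 0.33 (edgeR adjusted p = 0.0123), under the size threshold. For day 3 the adjusted p reached 0.113 over the other fits by edgeR, DESeq2 or limma. Leaving out 1 library ended the day 1 call in 5 of 6 fits, with edgeR adjusted p = 0.0621 without library 1 of siCtrl, 0.0554 without library 2 of siCtrl, and 0.0928, 0.0624 and 0.111 without library 1, 2 or 3 of siPRMT1. Its rise over time in siCtrl (log2 fold change 0.50, SE 0.11, edgeR adjusted p = 0.00275) lay at the threshold, and was lost at 0.411 to 0.4998 without any 1 library but library 2 of siCtrl day 1. It was also under the threshold with RLE scaling, no filter on low counts, 1 model of all libraries and limma on log2(FPKM + 1), at 0.391 to 0.49986, and the day 1 call was lost with limma on log2(FPKM + 1), at 0.43.

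The FACIT chain Col12a1 had the largest fall over time among the chains tested, in siCtrl and in siPRMT1. Col12a1 (chr9:79598987-79719599), which decorates type I fibrils, measured 30.9, 31.2 and 33.5 FPKM in siCtrl and 29.2, 28 and 26 in siPRMT1 on day 1, and 7.1, 6.56 and 6.91 against 10.3, 10.1 and 10.6 on day 3. Every siPRMT1 library was below siCtrl on day 1 and above it on day 3, the same order as for Col1a2. From day 1 to day 3 it fell in siCtrl (log2 fold change -2.28, SE 0.078, edgeR adjusted p = 1.4e-08) and in siPRMT1 (log2 fold change -1.44, SE 0.062, edgeR adjusted p = 2.2e-10). On day 3 it was higher with siPRMT1 (log2 fold change 0.59, SE 0.067, edgeR adjusted p = 3.1e-05), after a day 1 value of -0.25 (edgeR adjusted p = 0.0623). The interaction was called (0.86, SE 0.093, edgeR adjusted p = 5.0e-05).

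Col16a1 (chr4:130047426-130099277) measured 2.99, 3.2 and 4.79 FPKM in siCtrl and 3.29, 3.08 and 3.22 in siPRMT1 on day 1, then 1.38, 1.31 and 1.15 against 1.07, 1.45 and 1.49 on day 3. It fell in siCtrl (log2 fold change -1.58, SE 0.19, edgeR adjusted p = 5.9e-05) and in siPRMT1 (log2 fold change -1.27, SE 0.11, edgeR adjusted p = 2.5e-07), and the siRNA groups overlapped on both days. The deposited table also has a row for this chain on another scaffold, which held 80.8% to 84.2% of the counts of both rows, at 5.43 to 24.4 FPKM, so that the levels given for Col16a1 are of the smaller row. With both rows summed, an alternative chosen after seeing the data, its time values were -1.84 in siCtrl and -1.42 in siPRMT1. Col20a1 (chr2:180983323-181017545) measured 2.32, 2.4 and 2.37 against 3.05, 3.23 and 3.36 FPKM on day 1 and 2.45, 2.54 and 2.51 against 1.91, 2.01 and 2.12 on day 3. Its siPRMT1 libraries were all above siCtrl on day 1, at 0.39 (edgeR adjusted p = 0.0247), and all below on day 3, at -0.32 (edgeR adjusted p = 0.0244), both under the size threshold. Other fits by edgeR, DESeq2 or limma gave an adjusted p of up to 0.126 on day 1 and 0.165 on day 3. The difference of the knockdown effect between days was called (interaction -0.69, SE 0.11, edgeR adjusted p = 0.00125), opposite in sign to that of Col12a1. It fell over time in siPRMT1 (log2 fold change -0.69, SE 0.079, edgeR adjusted p = 4.0e-06), while the siCtrl value was 0.0094 (edgeR adjusted p = 0.941). The siPRMT1 value was -0.48 with limma on log2(FPKM + 1), under the size threshold.

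Type IV collagen of basement membranes was abundant, and its 2 main chains were called in no comparison. Col4a1 (chr8:11198423-11312826) and Col4a2 (chr8:11312805-11449287), whose chains form the common type IV trimer, lie head to head on opposite strands of chromosome 8 and share 22 exonic bases, whose reads cannot be told apart without strand. Col4a1 measured 415, 430.1 and 478 FPKM in siCtrl and 409, 418 and 405 in siPRMT1 on day 1, and 480.1, 498 and 466 against 426, 449.5 and 465 on day 3. Col4a2 measured 276, 279 and 330.1 against 309, 303 and 304 FPKM on day 1, and 348, 366 and 338 against 274, 309 and 319.8 on day 3. On day 3 the siPRMT1 libraries of both chains were below all siCtrl libraries, with log2 fold changes of -0.11 (edgeR adjusted p = 0.262) for Col4a1 and -0.23 (edgeR adjusted p = 0.0432) for Col4a2. For Col4a2 the adjusted p reached 0.206 over the other fits by edgeR, DESeq2 or limma. Neither chain was called in any of the 5 comparisons, with time values of 0.056 and 0.18 in siCtrl and 0.11 and -0.034 in siPRMT1.

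Col4a5 (chrX:141475370-141689236), an X-linked type IV chain of kidney and other basement membranes, was far less abundant and fell over time. It measured 13.7, 13.9 and 15.5 FPKM in siCtrl and 15.1, 15.6 and 13.7 in siPRMT1 on day 1, and 10.6, 9.77 and 9.42 against 10.1, 10.3 and 10.7 on day 3. The siRNA groups overlapped on both days and the days did not. It fell in siCtrl (log2 fold change -0.60, SE 0.091, edgeR adjusted p = 2.7e-04) and in siPRMT1 (log2 fold change -0.53, SE 0.067, edgeR adjusted p = 1.0e-05), and the latter reached -0.49, under the size threshold, without library 2 of siPRMT1 day 1. With limma on log2(FPKM + 1) both values were just under the threshold, at -0.49 and -0.48.

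Type VI collagen assembles from Col6a1 (chr10:76708792-76726044), Col6a2 (chr10:76595756-76623625) and Col6a3 (chr1:90766860-90843971), and the tail of the Col6a3 chain is released as the adipokine endotrophin. Col6a3 measured 157, 160.0 and 175 FPKM in siCtrl on day 1 and 412, 459.7 and 446 on day 3, and 132, 131 and 125 on day 1 and 386, 389.8 and 411 on day 3 in siPRMT1. All day 3 libraries were above all day 1 libraries, and siPRMT1 was below siCtrl in every library on both days. It rose 2.55-fold in siCtrl (log2 fold change 1.35, SE 0.074, edgeR adjusted p = 2.7e-07) and 3.03-fold in siPRMT1 (log2 fold change 1.60, SE 0.052, edgeR adjusted p = 1.2e-11). The knockdown values were -0.39 (edgeR adjusted p = 0.00714) on day 1 and -0.16 (edgeR adjusted p = 0.137) on day 3, and neither was called. For day 1 the adjusted p reached 0.0567 over the other fits by edgeR, DESeq2 or limma.

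Neither partner was called over time. Col6a1 measured 839, 882 and 886 FPKM in siCtrl and 751, 721 and 743 in siPRMT1 on day 1, and 700.3, 790.4 and 727 against 681, 713 and 723 on day 3. The day 1 siPRMT1 libraries were all below siCtrl, at -0.28 (edgeR adjusted p = 0.00969) and under the size threshold, and the day 3 groups overlapped. Other fits by edgeR, DESeq2 or limma gave an adjusted p of up to 0.144 on day 1. Col6a2 measured 465, 476 and 523 against 457, 438 and 463 FPKM on day 1 and 429, 495 and 437 against 400.5, 423 and 438 on day 3. Its time values were -0.18 (edgeR adjusted p = 0.0845) in siCtrl and -0.12 (edgeR adjusted p = 0.0525) in siPRMT1, beside -0.30 (edgeR adjusted p = 0.00337) and -0.078 (edgeR adjusted p = 0.164) for Col6a1. Col6a1 and Col6a2 lie on the same strand of chromosome 10.

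The 2 multiplexins, both sources of endostatin-type fragments, differed from each other. Col15a1 (chr4:47207627-47313167), a proteoglycan chain that links basement membranes to the matrix beneath, measured 2.99, 3.03 and 4.16 FPKM in siCtrl and 2.46, 2.8 and 2.99 in siPRMT1 on day 1, which overlapped. On day 3 it measured 22.2, 21.9 and 20.1 in siCtrl and 11.3, 12.4 and 13.6 in siPRMT1, with every siPRMT1 library lower. It rose 6.03-fold in siCtrl (log2 fold change 2.59, SE 0.14, edgeR adjusted p = 2.3e-07) and 4.47-fold in siPRMT1 (log2 fold change 2.16, SE 0.087, edgeR adjusted p = 1.1e-10), the largest rise among the chains tested in each. Its exons share 89 bases with the opposite-strand Gm12426, which had 0 to 65 counts. Its day 3 level was lower with siPRMT1 (log2 fold change -0.79, SE 0.078, edgeR adjusted p = 1.0e-05), and it was the single chain called lower on that day. The day 1 value was -0.35 (edgeR adjusted p = 0.173) and the interaction -0.42 (edgeR adjusted p = 0.118), so a difference between the days was not called, although without library 3 of siCtrl day 1 the interaction was -0.62 (edgeR adjusted p = 0.00181). Col18a1 (chr10:77052178-77166530), a heparan sulfate proteoglycan of many basement membranes, measured 54.1 ± 10.1 FPKM in siCtrl and 62.2 ± 1.05 in siPRMT1 on day 1, and 63.4 ± 1.53 and 59.1 ± 4.77 on day 3 (mean ± SD). Its groups overlapped in all 4 pairwise comparisons and it was called in none.

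Of the 8 chains below 1 FPKM that were tested, 5 were called in a pairwise comparison. The share of all genes called in any pairwise comparison was not computed, so this count cannot be read as an excess. Over time alone, 22.7% of all genes tested were called higher and 20.4% lower in siCtrl, and 19.0% and 17.4% in siPRMT1. Col28a1, a chain found around peripheral nerve, measured 0.93, 1.15 and 0.89 FPKM in siCtrl and 0.99, 1.17 and 1.2 in siPRMT1 on day 1, and 0.4, 0.41 and 0.43 against 0.96, 0.98 and 0.85 on day 3. It fell over time in siCtrl (log2 fold change -1.31, SE 0.16, edgeR adjusted p = 7.2e-05) and was higher with siPRMT1 on day 3 (log2 fold change 1.15, SE 0.14, edgeR adjusted p = 6.1e-05). Col23a1, a transmembrane collagen, measured 0.88, 0.72 and 0.9 against 0.76, 0.75 and 0.77 FPKM on day 1 and 0.27, 0.3 and 0.27 against 0.51, 0.77 and 0.8 on day 3. It fell in siCtrl (log2 fold change -1.65, SE 0.16, edgeR adjusted p = 1.6e-05), was -0.13 (edgeR adjusted p = 0.449) over time in siPRMT1, and was higher with siPRMT1 on day 3 (log2 fold change 1.31, SE 0.19, edgeR adjusted p = 2.1e-04). Both had called interactions, of 1.04, SE 0.19, edgeR adjusted p = 0.00311 for Col28a1 and 1.52, SE 0.23, edgeR adjusted p = 8.6e-04 for Col23a1. The day 3 libraries of siPRMT1 and siCtrl did not overlap for either gene.

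Col7a1, the chain of anchoring fibrils under epithelia, measured 0.64, 0.53 and 0.58 FPKM in siCtrl and 1.09, 1.02 and 1.25 in siPRMT1 on day 1, and 0.51, 0.46 and 0.56 against 0.6, 0.62 and 0.65 on day 3. It was higher with siPRMT1 on day 1 (log2 fold change 0.88, SE 0.13, edgeR adjusted p = 0.00772), a call that was lost without library 3 of siPRMT1 at 0.79 (edgeR adjusted p = 0.0595), and fell over time in siPRMT1 (log2 fold change -0.85, SE 0.11, edgeR adjusted p = 8.8e-06). Its interaction was -0.58 (edgeR adjusted p = 0.0369), and the adjusted p was 0.0533 to 0.102 in the 8 of 12 fits without 1 library that ended the call. These were the fits without library 2 of siCtrl day 1, library 1 or 3 of siPRMT1 day 1, library 1 or 3 of siCtrl day 3, or any of the siPRMT1 day 3 libraries. With no filter on low counts it was -0.54 (edgeR adjusted p = 0.11), also not called. Col9a3, a FACIT chain of cartilage, measured 0.15, 0.22 and 0.24 against 0.82, 0.79 and 0.85 FPKM on day 1 (log2 fold change 2.02, SE 0.21, edgeR adjusted p = 0.00302) and 0.13, 0.2 and 0.16 against 0.3, 0.39 and 0.38 on day 3 (log2 fold change 1.15, SE 0.29, edgeR adjusted p = 0.0131). The day 3 call was lost without library 1 or 3 of siCtrl or library 2 of siPRMT1, at 1.02 (edgeR adjusted p = 0.0557), 1.12 (edgeR adjusted p = 0.053) and 1.09 (edgeR adjusted p = 0.0553), and with DESeq2 (adjusted p = 0.0700). Col9a3 also fell over time in siPRMT1 (log2 fold change -1.20, SE 0.18, edgeR adjusted p = 5.1e-05). Its exons share 230 bases with the opposite-strand Tcfl5, which had at most 2 counts. Col8a1, a short chain of endothelial and corneal matrix, measured 0.51, 0.3 and 0.4 FPKM in siPRMT1 on day 1 and 0.76, 0.77 and 0.55 on day 3 (log2 fold change 0.78, SE 0.20, edgeR adjusted p = 0.00393). In siCtrl it measured 0.45, 0.37 and 0.32 FPKM on day 1 and 0.64, 0.38 and 0.41 on day 3, at 0.22 (edgeR adjusted p = 0.442). Its day 3 difference with siPRMT1 was 0.53 (edgeR adjusted p = 0.0909), and passed without library 1 of siCtrl or library 3 of siPRMT1, at 0.79 (edgeR adjusted p = 0.0203) and 0.66 (edgeR adjusted p = 0.0357). The calls of these 5 chains were lost with limma on log2(FPKM + 1) and no filter, a scale on which changes under 1 FPKM are small, except that of Col9a3 on day 1 and that of Col23a1 over time in siCtrl.

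As shares of the summed FPKM of all 44 chains, types I and III took less on day 3 than on day 1, and types VI and IV more. Type I chains made up 22.5 ± 0.0945% (mean ± SD) of collagen FPKM in siCtrl and 21.9 ± 0.558% in siPRMT1 on day 1, and 11.7 ± 0.525% and 15 ± 0.43% on day 3. Type III took 12.4 ± 0.529% and 12.9 ± 0.371% on day 1 and 7.22 ± 0.212% and 9.76 ± 0.153% on day 3. Type VI took 38.2 ± 0.563% and 35.8 ± 0.72% on day 1 and 47.7 ± 0.985% and 44.5 ± 0.727% on day 3. The days did not overlap for types I, III and VI, in either siRNA. Of the type VI chains, Col6a3 alone was called higher over time, and Col6a1 and Col6a2 had negative time values in both siRNAs.

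Type IV took 18.8 ± 0.639% in siCtrl and 19.8 ± 0.315% in siPRMT1 on day 1 and 24.6 ± 0.694% and 22.1 ± 0.2% on day 3, again without overlap of the days. Type V took 5.43 ± 0.21% and 6.64 ± 0.113% on day 1 and 5.76 ± 0.235% and 5.92 ± 0.098% on day 3. On day 3 the siPRMT1 libraries were all above siCtrl in types I and III and all below in types IV and VI, and they overlapped in type V. On day 1, siPRMT1 was above siCtrl in type V and below in type VI, and overlapped in the others. Summed collagen FPKM was 3980.0 ± 215 in siCtrl and 3685 ± 66.1 in siPRMT1 on day 1, with no overlap, and 3417 ± 148 and 3425 ± 167 on day 3, with overlap. Collagen chains took 2.35 ± 0.138%, 2.19 ± 0.0378%, 2.2 ± 0.0915% and 2.17 ± 0.105% of all counts in the same order. Shares sum to a whole, so that a fall of one type raises the others.

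**Figure D4:**
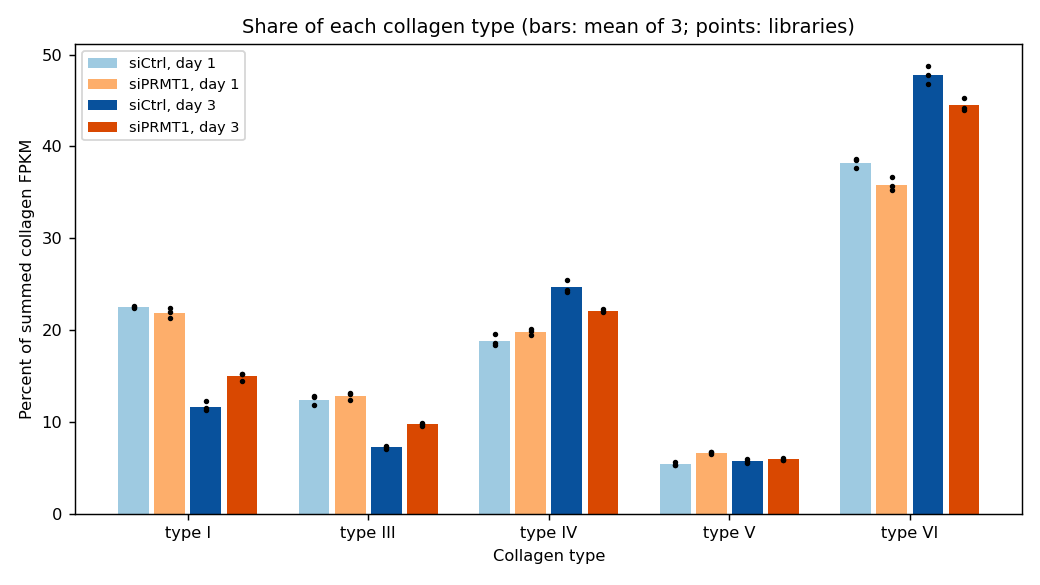
Share of summed collagen FPKM taken by types I, III, IV, V and VI in each library, by condition, in percent. Points are libraries and bars are means of 3 libraries. In siCtrl, type VI held 38.2 ± 0.563% on day 1 and 47.7 ± 0.985% on day 3, and type I 22.5 ± 0.0945% and 11.7 ± 0.525%.

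Ratios between chains of the same or a partner type, which do not depend on library scaling, differed between the days by more for some pairs than for others. The ratio of Col6a3 to Col6a1 FPKM on day 1 was 0.187, 0.181 and 0.197 for siCtrl and 0.175, 0.182 and 0.168 for siPRMT1, and on day 3 0.588, 0.582 and 0.614 for siCtrl and 0.567, 0.547 and 0.568 for siPRMT1. It was higher on day 3 in every library, and on day 3 it was lower in siPRMT1 than in siCtrl without overlap. The ratio of Col5a3 to Col5a1 went from 0.284 ± 0.00519 to 0.689 ± 0.0413 in siCtrl and from 0.276 ± 0.00211 to 0.537 ± 0.0205 in siPRMT1, and was again lower in siPRMT1 on day 3 without overlap. The group means of Col6a2 to Col6a1 ran from 0.561 ± 0.0259 to 0.613 ± 0.0125, with overlap only between the siRNAs on day 3. The ratio of Col4a1 to Col4a2 was 1.5 ± 0.0469 against 1.35 ± 0.0303 on day 1 and 1.37 ± 0.00965 against 1.49 ± 0.0594 on day 3. Its groups did not overlap in any pairwise comparison, and siPRMT1 was below siCtrl on day 1 and above it on day 3.

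The ratio of Col1a1 to Col1a2, whose protein holds these chains 2 to 1, was on day 1 0.407, 0.419 and 0.461 for siCtrl and 0.45, 0.412 and 0.443 for siPRMT1. The day 3 ratios were 0.521, 0.581 and 0.557 for siCtrl and 0.407, 0.467 and 0.469 for siPRMT1, so that siCtrl lay above all other groups and siPRMT1 overlapped its own day 1 range. The ratio of Col3a1 to Col1a2 was 0.787 ± 0.0213 and 0.843 ± 0.00085 on day 1 and 0.963 ± 0.0416 and 0.945 ± 0.0166 on day 3, higher on day 3 for both siRNAs. Across the shares, sums and ratios, 56 exact two-sided permutation tests were made, and 39 gave p = 0.1, the smallest that 3 against 3 libraries allow, so that none can reach 0.05 and the separation of the groups is given as a description.

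**Figure D5:**
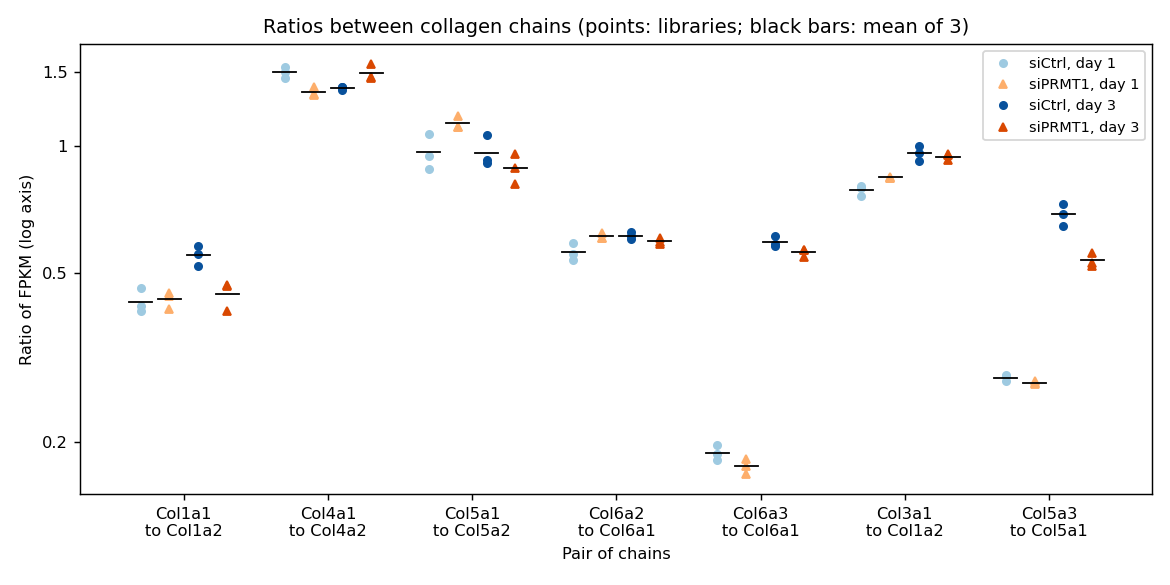
Ratio of FPKM between chains of the same or a partner collagen type in each library, by condition, on a log axis. Points are libraries and short black bars are means of 3 libraries. Col6a3 to Col6a1 and Col5a3 to Col5a1 were higher on day 3 in both siRNAs, and Col1a1 to Col1a2 in siCtrl on day 3, at 0.521 to 0.581, lay above the other groups.

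Of 48 genes that modify, fold, export, cleave or bind collagen, 41 were tested. From day 1 to day 3, 2 rose and 19 fell in siCtrl (median log2 fold change -0.47 over the 41, beside -0.0042 over all genes), and 2 rose and 16 fell in siPRMT1 (median -0.26, beside 0.0022). Over all genes tested, 22.7% were called higher and 20.4% lower in siCtrl, and 19.0% and 17.4% in siPRMT1. Procollagen cleavage had 6 of 7 genes lower in each, collagen receptors and uptake 6 of 9 and 5 of 9, the hydroxylases and glycosyltransferases 4 of 14 in each, and the chaperones and export genes 3 of 11 and 1 of 11. With siPRMT1, 1 was called higher and 2 lower on day 1, and 2 higher and 1 lower on day 3, with medians of -0.085 and 0.068, where 1.95% and 1.61% of all genes were called higher and lower on day 1 and 2.84% and 3.80% on day 3. The effect of siPRMT1 differed between the days for 6 of 41, all more positive on day 3, as did 4.77% of all genes in that direction.

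On day 1, Adamts14, a procollagen N-proteinase, measured 2.16, 2.38 and 2.87 FPKM in siCtrl and 4.95, 5.15 and 5.08 in siPRMT1 and was higher (log2 fold change 0.99, SE 0.11, edgeR adjusted p = 0.00354). P3h2, a prolyl 3-hydroxylase of basement membrane collagen, measured 6.13, 6.87 and 7.45 against 4.73, 4.14 and 4.31 FPKM and was lower (log2 fold change -0.68, SE 0.11, edgeR adjusted p = 0.012). That call was lost without library 2 of siCtrl or library 2 or 3 of siPRMT1, at -0.67 (edgeR adjusted p = 0.0608), -0.66 (edgeR adjusted p = 0.0631) and -0.67 (edgeR adjusted p = 0.0802). Pcolce2, an enhancer of procollagen C-proteinase, measured 26.7, 25.7 and 32.6 against 21.2, 18.8 and 18.9 FPKM and was lower (log2 fold change -0.58, SE 0.10, edgeR adjusted p = 0.0177). That call was lost in each fit without 1 library but library 1 of siCtrl, at -0.48 to -0.66.

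On day 3, P4ha3, a catalytic subunit of prolyl 4-hydroxylase, measured 0.76, 0.88 and 1 FPKM in siCtrl and 1.92, 1.9 and 2.08 in siPRMT1 and was higher (log2 fold change 1.14, SE 0.16, edgeR adjusted p = 1.5e-04), after 14.2, 14.8 and 12.6 against 15.1, 13.7 and 14 FPKM on day 1. Antxr1, a surface receptor that binds collagen and the collagen VI tail, measured 15.1, 14.8 and 15 against 21.8, 24.1 and 23.9 FPKM and was higher (log2 fold change 0.63, SE 0.068, edgeR adjusted p = 2.0e-05), while on day 1 it measured 38.1, 39.6 and 43.9 against 32.3, 33.7 and 32.5. Both had called interactions, of 1.17, SE 0.16, edgeR adjusted p = 3.7e-04 for P4ha3 and 1.0, SE 0.098, edgeR adjusted p = 2.4e-05 for Antxr1. Plod2, the lysyl hydroxylase of collagen telopeptides, measured 10.2, 8.07 and 7.66 against 6.84, 5.73 and 5.41 FPKM and was lower (log2 fold change -0.53, SE 0.12, edgeR adjusted p = 0.00513). With limma on log2(FPKM + 1) the Plod2 value was -0.46, and by edgeR it was under the size threshold without library 1 of siCtrl or library 2 or 3 of siPRMT1, at -0.41, -0.49 and -0.47.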

How the data were processed

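Total RNA of 3T3-L1 cells was sequenced by the authors as mRNA libraries, 3 for each of 4 conditions. Per the submitters' processing notes, cutadapt 1.11, HISAT2 2.1.0 and RSEM 1.2.6 were used with the mouse build mm10, and the paper's methods give read filtering with cutadapt and mapping with HISAT2. The counting step, the strand setting and the treatment of multimapping reads are not given in the sources used here. The deposited table holds raw counts per gene, the gene length and FPKM made by the authors. FPKM recomputed from the counts, lengths and library totals differed from the deposited FPKM by at most 0.005.

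Groups were taken from the sample titles. The deposited counts were fitted over all genes with edgeR 4.0.16 (TMM scaling, filterByExpr, quasi-likelihood F test) in R 4.3.3, for each pairwise comparison in its own 6 libraries and for the interaction in all 12, and p-values were adjusted by Benjamini-Hochberg over all genes tested. A call required an adjusted p under 0.05 together with a log2 fold change beyond 0.5 in either direction, which the authors had used with DESeq2. The alternatives were DESeq2 1.42.0, RLE scaling, other filters, limma 3.58.1 on log2(FPKM + pseudocount), 1 model for all libraries, a replicate block, each library left out and, added after seeing the data, the suffixed rows of alternate scaffolds summed with their chain. The scripts were tested on simulated counts.

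Named were the chains with a mean of at least 1 FPKM, those under it that were called in a pairwise comparison, the collagen handling genes called in a knockdown comparison, and Prmt1. The members and the lists of genes were chosen with earlier results of these data known. The paper's statistics section speaks of independent experiments in general, and the labels do not say whether the 3 libraries of a condition came from separate cultures. The p-values measure the spread between these libraries, which may be technical. No 2 libraries were identical. The chi-square of the counts between 2 libraries of a condition, averaged over genes, set library 3 of siCtrl day 1 apart. It was 50.6 and 30.8 for this library against libraries 1 and 2 of its group, and 5.3 between those. All other pairs gave 4.14 to 15.8. Library 3 of siCtrl day 1 enters each comparison that uses siCtrl day 1. Same-numbered libraries correlated in their deviations from the group means by -0.31 to 0.41, with both signs. Libraries of different numbers were not correlated for comparison, so this does not settle whether the numbers pair the libraries. Sequences came from GENCODE M21 and RefSeq on GRCm38, and no promoter entry was matched for Col1a1, Col5a2 and Col12a1.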

Additional observations from a re-analysis of the deposited data

Results flagged for a closer look

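For 9 of 27 chains tested the effect of siPRMT1 differed between day 1 and day 3 by the test of the interaction of siRNA and time over all 12 libraries (edgeR adjusted p under 0.05, whatever the size). At the same rule 1799 of all 14612 genes tested passed. The difference of log2 fold changes, day 3 minus day 1, was 0.69 for Col1a2, 0.56 for Col3a1, 0.66 for Col11a1 and 0.86 for Col12a1, and 1.04 for Col28a1 and 1.52 for Col23a1, which had under 1 FPKM. It was -0.69 for Col20a1, -0.58 for Col7a1 and -0.45 for Col5a3. For Col1a2 and Col12a1 all siPRMT1 libraries were below siCtrl on day 1 and above it on day 3, and for Col20a1 the order was the opposite. For Col5a3 the size lay under the threshold, and the adjusted p reached 0.0711 over the other fits by edgeR, DESeq2 or limma. For Col7a1 the test depended on single libraries, with an edgeR adjusted p = 0.102 without library 3 of siPRMT1 day 1.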

How the results depend on the processing

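The 10 counts of called chains and the values of the named genes were recomputed under each alternative. DESeq2, RLE scaling, a minimum of 10 counts in every library, and the suffixed rows added to their chain (an alternative chosen after seeing the data) left every count within 1.5 times. So did the replicate block, which gave 3 and 0 chains higher and lower with siPRMT1 on day 1, 6 and 1 on day 3, 4 and 8 over time in siCtrl, 3 and 10 in siPRMT1, and 6 and 2 for the interaction. Beyond adding Col8a1 on day 3, at 0.53 (edgeR adjusted p = 0.0481), the block changed no call of a chain or named gene. Whether the replicate numbers pair the libraries is not known. With the suffixed rows added, Col11a2 was called higher with siPRMT1 on day 1 (0.73) and lower over time in siPRMT1 (-0.57). With no threshold on the fold change, siPRMT1 gave 3 lower chains on day 1 (0 with it), 8 higher and 4 lower on day 3 (5 and 1), and time in siPRMT1 6 higher (3). In either direction, 7 of 27, 12 of 26 and 18 of 26 chains passed at that rule. Over all genes these were 1040 of 13689, 2313 of 14039 and 9014 of 14224. With limma on log2(FPKM + 1), which understates changes of low genes, chains higher with siPRMT1 numbered 0 on day 1 and 1 on day 3, chains lower over time 5 in siCtrl and 6 in siPRMT1, and chains with a more positive effect on day 3 numbered 2. With a pseudocount of 0.1 these counts were 1, 2 and 3 for day 1, day 3 and the interaction, and with no filter on low FPKM 1, 1 and 2, with 6 lower over time in siPRMT1. With no filter on low counts, 1 chain had a more negative effect on day 3 (2 with it). Of the calls of single genes, DESeq2 ended 1, RLE scaling 1, 1 model of all libraries 1, no filter on low counts 2 and the limma fits 9, 1 and 22 with a pseudocount of 1, of 0.1 and with no filter. These numbers leave out calls of genes that a fit did not test. Leaving out 1 library gave 1 to 3 higher and 0 to 0 lower on day 1, 4 to 6 and 1 to 1 on day 3, 3 to 4 and 8 to 9 over time in siCtrl, 3 to 3 and 9 to 10 in siPRMT1, and 5 to 6 and 1 to 4 for the interaction. Values that changed sign were near 0 and called in no fit. On day 1 with siPRMT1 these were Col5a2 (-0.0016 with no filter, -0.010 with at least 10 counts, -0.028 in 1 model of all libraries, -0.041 to 0.027 without 1 library), Col4a2 (-0.0015 with DESeq2, -0.0016 with RLE, -0.0050 with no filter, -0.013 with at least 10 counts, -0.032 in 1 model, -0.043 to 0.081 without 1 library) and Col4a5 (0.040, 0.042 and 0.040 with limma at a pseudocount of 1, of 0.1 and with no filter, -0.070 to 0.043 without 1 library). On day 3, Col16a1 ran from -0.023 to 0.19 without 1 library. Over time, Col20a1 in siCtrl was -0.0037 with no filter and -0.060 to 0.0066 without 1 library, Col4a1 in siCtrl -0.027 to 0.11 and Col4a2 in siPRMT1 -0.084 to 0.023. For the interaction, Col4a1 was -0.0069 with limma under each setting and -0.034 to 0.11 without 1 library, Col6a2 was -9.2e-05 and -0.00011 with limma and -0.021 to 0.14 without 1 library, and Col4a5 was -0.0070 to 0.12. The cause of these changes was not tested. With no filter on low counts, some of the 17 untested chains were called over time, each with at most 14 counts in any library. In siCtrl, Col4a3 (2.09, edgeR adjusted p = 0.0228) and Col8a2 (1.94, edgeR adjusted p = 0.0188) were higher. In siPRMT1, Col10a1 (2.28, edgeR adjusted p = 0.0186) was higher and Col22a1 (-2.91, edgeR adjusted p = 0.037) lower. With the filter, changes of the 17 chains were not tested at 3 libraries a group and these depths.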
